A study of Drosophila melanogaster with 6 samples.

Results

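The genes described here encode enzymes that break down tyrosine and tryptophan, together with the phenylalanine hydroxylase that supplies tyrosine. They are Hn, Tat, Hpd, hgo, GstZ1, GstZ2, Faa, v, KFase and cn, 10 genes in all. A gene entered through probe sets whose only gene symbol, after updating to current names, is that gene. Of the 10, 8 had such a probe set, 1 each, among 11982 genes with a probe set of their own; Hn and v had none and were not analysed here. The group was chosen for opposite differences in embryos with altered Grainy head (Grh), which not every gene in it shows. The differences below therefore describe how the group was chosen and carry no test.

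Grh is a transcription factor of epidermal differentiation in Drosophila melanogaster, and the study compared whole stage 16 embryos, in which the larval cuticle is being made, of 3 genotypes on 6 Affymetrix arrays, 2 per genotype. The wild type was the strain w1118. The mutant carried the allele grhB37, and the overexpression embryos were labelled 69B>grh, 69B being a GAL4 driver line active in the embryonic ectoderm. No driver-only group is among the samples, and the labels do not say whether embryos were pooled, how mutant embryos were picked, whether the strains share a background or whether the replicates came from separate collections, so p-values cover the spread of these arrays alone, and strain, collection and Grh cannot be told apart. Values are log2 expression as deposited, running from a floor of 2.27 to 14.1, and a gene with both arrays of a genotype under 4 is called dim there.

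Tyrosine is taken apart in the cytosol by a linear chain of enzymes. Tyrosine aminotransferase gives 4-hydroxyphenylpyruvate, a dioxygenase turns that into homogentisate, a further dioxygenase opens its ring, and an isomerase and a hydrolase then leave fumarate and acetoacetate, which feed central metabolism. Tryptophan is opened by a dioxygenase to formylkynurenine, which a formamidase turns into kynurenine and a monooxygenase into 3-hydroxykynurenine, the precursor of the brown ommochrome eye pigments of the fly. In insects tyrosine is also the raw material of the catecholamines that harden and darken cuticle, so breakdown and cuticle tanning draw on the same amino acid.

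The brighter of the grh probe sets read 7.36 and 7.45 in wild type, 9.05 and 9.02 on the mutant-labelled arrays and 12.27 and 12.38 in grh overexpression. The other grh probe set was dim on every array, with means of 3.25, 3.53 and 2.46 in the same order. The brighter probe set was higher, not lower, on the arrays labelled grh mutant (called the mutant-labelled arrays from here on). It therefore does not check that label, and every direction given for those arrays rests on the label. The array medians lay between 2.99 and 3.16. The mean of the hybridisation control probe sets was 8.41 ± 0.14 (SD, n = 2) in wild type, 7.58 ± 0.15 on the mutant-labelled arrays and 8.15 ± 0.20 in grh overexpression, and the part of this difference in the results below was not tested. The 3' minus 5' difference of the actin control, which follows RNA quality, was 1.44 ± 0.032, 1.29 ± 0.028 and 1.41 ± 0.11. That of the Gapdh control was 0.98 ± 0.076, 1.002 ± 0.041 and 1.16 ± 0.087, and that of the eIF4A control 1.08 ± 0.085, 1.04 ± 0.14 and 1.05 ± 0.081, so the controls did not share an order of genotypes.

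Most of the tyrosine chain was low on the mutant-labelled arrays and high in grh overexpression, with Hpd and hgo standing out. Tat, the aminotransferase of the first step, read 4.20 and 4.15 in wild type, 2.69 and 2.73 on the mutant-labelled arrays and 4.23 and 4.35 in grh overexpression. It was dim on the mutant-labelled arrays, where it was at least 1.13-fold lower than in wild type. In grh overexpression it lay 0.12 ± 0.082 above wild type on the log2 scale. The groups did not touch, but the 2 overexpression arrays were as far apart from each other as their mean was from wild type. After quantile normalization the Tat difference between overexpression and wild type was -0.00023. No direction can therefore be given for Tat in overexpression. In bulk embryos, fewer cells of a type and less RNA per cell cannot be told apart, here and below.

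Hpd encodes 4-hydroxyphenylpyruvate dioxygenase, which makes homogentisate. Its probe set read 4.96 and 5.15 in wild type, 2.36 and 2.32 on the mutant-labelled arrays and 12.59 and 12.56 in grh overexpression. The 3 genotypes were far apart compared with the gaps between replicates, and grh overexpression held the highest value. Hpd was 184-fold higher in grh overexpression than in wild type (log2 difference 7.52 ± 0.075, SE) and at least 2.07-fold lower on the mutant-labelled arrays, where it was dim. Between grh overexpression and the mutant-labelled arrays the fold was at least 382.

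The next enzyme, homogentisate 1,2-dioxygenase, is encoded by hgo. The hgo values were 4.38 and 4.07 in wild type, 2.27 and 2.27 on the mutant-labelled arrays, both at the floor, and 10.49 and 10.39 in grh overexpression. The wild type arrays lay just above the limit for dim values and were the most variable of this gene, at 4.22 ± 0.22 (SD, n = 2). The gene was 74.4-fold higher in grh overexpression (log2 difference 6.22 ± 0.10, SE) and at least 1.17-fold lower on the mutant-labelled arrays. With a low wild type level and a floor, only a lower bound on that decrease was measured. In grh overexpression Hpd ranked 12 and hgo 23 from the highest difference among 8632 rows tested. The group was chosen on these differences, so the ranks are description only.

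**Figure D1:**
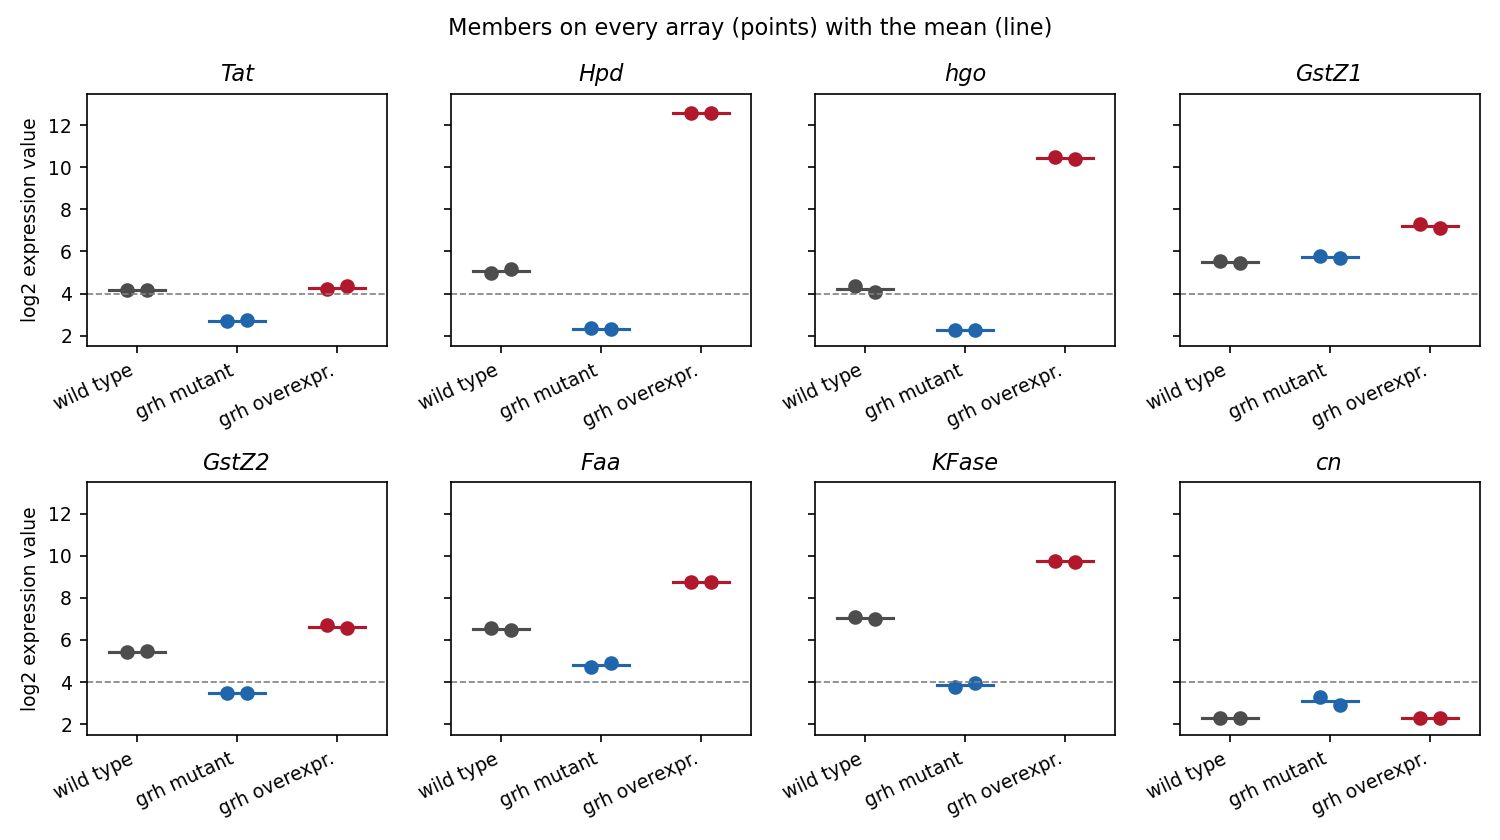
Log2 expression value of each gene with a probe set, 1 point per array and a line at the mean of the 2 arrays of a genotype, with the limit for dim values (4) dashed. Hpd and hgo reach 12.6 and 10.4 in grh overexpression, while Tat there lies at 4.29, next to wild type at 4.17, and cn stays under 4 on every array.

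The isomerase step, from maleylacetoacetate to fumarylacetoacetate, is assigned to zeta-class glutathione transferases, of which GstZ1 and GstZ2 are neighbours on chromosome arm 3R in the RefSeq gene order. GstZ1 read 5.55 and 5.43 in wild type, 5.77 and 5.68 on the mutant-labelled arrays and 7.30 and 7.09 in grh overexpression. GstZ2 read 5.41 and 5.49, 3.49 and 3.49, and 6.70 and 6.57 in the same order. The neighbours thus shared the direction in grh overexpression and not on the mutant-labelled arrays.

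GstZ1 lay 0.23 ± 0.085 (SE) above wild type on the log2 scale on the mutant-labelled arrays, and GstZ2, dim there, was at least 2.73-fold lower. In grh overexpression GstZ1 was 3.26-fold and GstZ2 2.27-fold higher than in wild type, with log2 differences of 1.71 ± 0.085 and 1.19 ± 0.080. Whether either probe set also reads the other gene was not tested. GstZ1 was the only tested gene of the group that was higher than wild type in both altered genotypes.

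Faa encodes fumarylacetoacetase, the last enzyme of the chain. It read 6.55 and 6.46 in wild type, 4.70 and 4.91 on the mutant-labelled arrays and 8.76 and 8.73 in grh overexpression. No genotype was dim, so both differences were measured without a bound, and the genotypes were well separated. Faa was 3.25-fold lower on the mutant-labelled arrays (log2 difference -1.70 ± 0.078, SE) and 4.73-fold higher in grh overexpression (2.24 ± 0.078). It was the only gene of the group both measured in every genotype and different in opposite directions.

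In the tryptophan chain the first enzyme, the tryptophan dioxygenase encoded by v, was not analysed here. KFase, the kynurenine formamidase gene, read 7.09 and 7.02 in wild type, 3.77 and 3.97 on the mutant-labelled arrays and 9.76 and 9.69 in grh overexpression. The genotypes did not overlap. KFase was at least 8.29-fold lower on the mutant-labelled arrays, where both arrays lay just under the limit for dim values, and 6.39-fold higher in grh overexpression (log2 difference 2.68 ± 0.076, SE). Only that bound on the decrease was measured.

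The gene of the following enzyme, cn, encodes kynurenine 3-monooxygenase. It read 2.29 on both arrays of wild type and on both of grh overexpression, and 3.28 and 2.91 on the mutant-labelled arrays. All 6 values were dim, so cn did not pass the filter on low values and no difference was fitted. With wild type dim, a decrease like that of KFase could not have been seen in cn. No increase was seen in grh overexpression.

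Counted together, 7 of the 8 genes with a probe set passed the filter, which asked that 2 or more arrays reach a log2 value of 4. Each of these 7 passed it in at least 2 genotypes. On the mutant-labelled arrays, 6 of the 7 lay below both wild type arrays, against 49.9% of all rows tested that did so, and 1 lay above both, against 40.4%. In grh overexpression all 7 lay above both wild type arrays, against 39.9% of all rows, and none lay below, against 49.7%. The 7 include Tat, which lay only 0.12 above wild type and for which no direction can be given there. Since the genes were chosen on these values, nothing is read from those shares. The median log2 difference of the 7 in grh overexpression was 2.24, beside -0.08 over all rows tested. On the mutant-labelled arrays 5 of the 7 were dim, so the fitted median of -1.95 is not a measured size, and with dim genes at their bound it was -1.05, beside -0.07 over all rows. Both comparisons use the same wild type arrays.

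The genes differed in how far they moved in each genotype. Differences in grh overexpression ran from 0.12 for Tat to 7.52 for Hpd on the log2 scale. Hpd and hgo had the largest increases, followed by KFase and Faa, with GstZ1, GstZ2 and Tat lower in that order. Adjacent genes in this order were further apart than their replicate SDs in each case. The order of decreases on the mutant-labelled arrays cannot be given among Hpd, hgo, GstZ2, Tat and KFase, since all 5 were dim there. Of their bounds only that of KFase, at least 8.29-fold, lies beyond the 3.25-fold decrease measured for Faa.

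**Figure D2:**
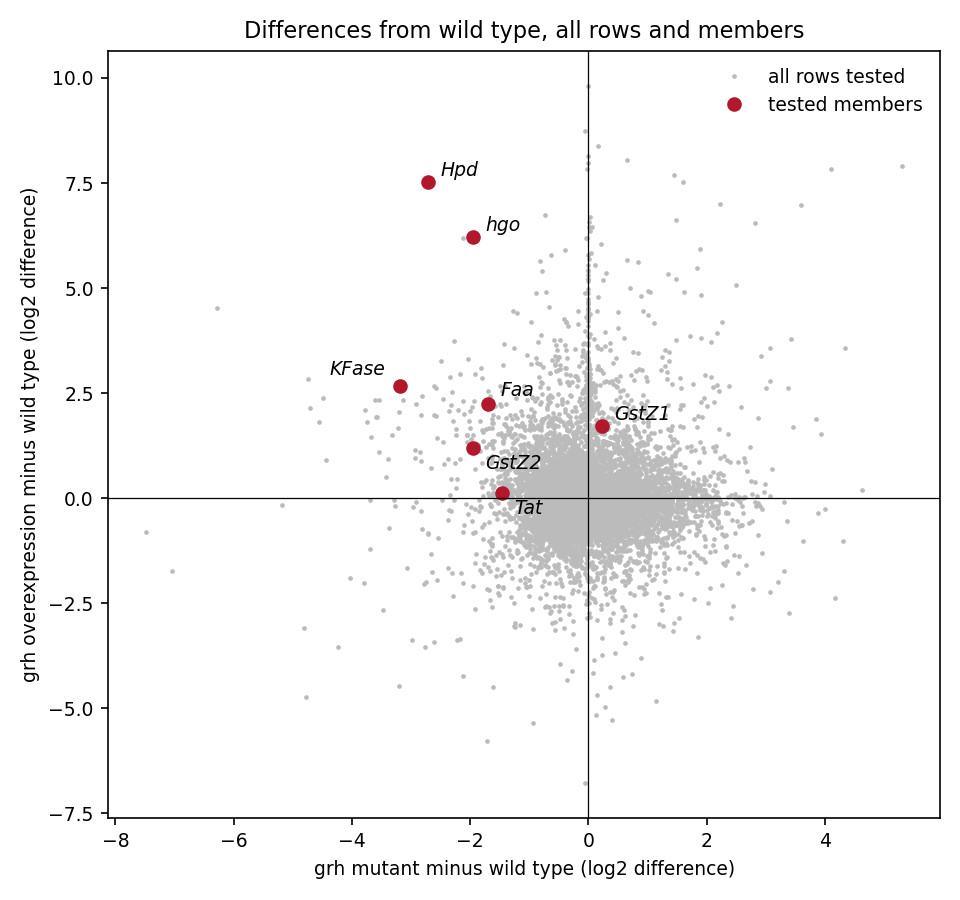
Log2 difference from wild type on the mutant-labelled arrays (horizontal axis) against that in grh overexpression (vertical axis), with 1 grey point for each of 8632 rows tested and 1 red point for each of the 7 tested genes. Hpd at 7.52 and hgo at 6.22 lie at the top left, Tat lies on the horizontal zero line and GstZ1 just right of the vertical one. The axes share the wild type arrays, and the horizontal positions of Hpd, hgo, GstZ2, Tat and KFase are fitted values of genes dim there.

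The genes whose pattern was nearest to Hpd and hgo were found by the Euclidean distance over the 6 arrays, each value taken relative to the gene's wild type mean. St2, named as a sulfotransferase gene, was nearest to both, at a distance of 0.37 log2 units from hgo and 2.05 from Hpd. St2 read 4.40 and 4.46 in wild type, 2.30 and 2.30 on the mutant-labelled arrays and 10.64 and 10.62 in grh overexpression. On the mutant-labelled arrays both St2 and hgo lay at or next to the floor, so their likeness there is set by it. The next nearest to hgo was CG14107 at 1.81, which is also among the 6 nearest to Hpd.

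The genes CG14107, CG13154 and Osi12, a gene of the Osiris family active in cuticle-forming cells, were among the 6 nearest to both. CG13258 and the cytochrome P450 gene Cyp303a1 completed the list for Hpd, and CG14105 and CG14110 that for hgo. CG13154, CG13258, Cyp303a1 and CG14105 were dim in wild type and on the mutant-labelled arrays, so they passed the filter only through grh overexpression and their increase was fixed by it. Apart from St2, the genes nearest to Hpd lay 3.02 to 3.89 log2 units from it, and those nearest to hgo 1.81 to 2.25. Their fitted differences on the mutant-labelled arrays ran from -0.82 for CG14107 to 0 for Cyp303a1, against -2.71 for Hpd and -1.95 for hgo. Most of these genes, and Hpd and hgo, were dim there, so these are not measured sizes. The likeness of these genes to Hpd and hgo thus lies mainly in the increase in grh overexpression. In the RefSeq gene order CG14107 and CG14110 lie on chromosome arm 3L with 1 gene between them, and CG14105 has 8 genes between it and CG14110. CG13258 and Cyp303a1 have 1 gene between them on arm 2L. These patterns were chosen by likeness, so they are given with no test.

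**Figure D3:**
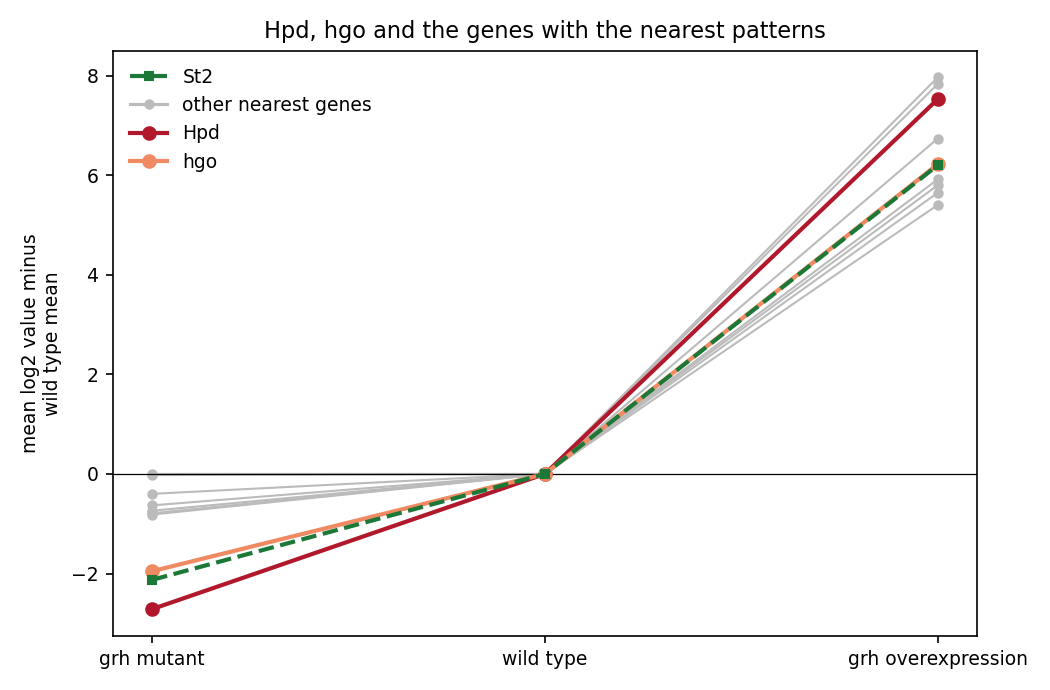
Mean log2 value of each genotype minus the wild type mean, for Hpd, hgo, their nearest gene St2 (dashed) and the other 7 nearest genes (grey). St2 lies on hgo in grh overexpression, where both are 6.2 above wild type, and on the mutant-labelled arrays St2, hgo and Hpd are dim, so their depth there is not a measured size. Of the grey genes 4 were dim in wild type too.

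Genes around the pathway, from lists that contain none of the 10, could be tested with limma on all rows, with Benjamini-Hochberg adjustment and a gene called at an adjusted p under 0.05. Of all rows tested, 36.3% were called higher and 44.6% lower on the mutant-labelled arrays, and 36.0% and 44.1% in grh overexpression. With so many calls, a call by itself says little, and sizes matter more. The lists were also chosen with earlier results of these data known. In most lists the genes named are mainly those with the largest differences, so their p-values belong to picked genes.

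Hn and tyrosine hydroxylase need the cofactor tetrahydrobiopterin. All 5 tested genes for making and recycling it rose in grh overexpression, with a median log2 difference of 1.78, or 1.32 over the 4 without Sptr, whose direction was fixed by the filter. Pu, the GTP cyclohydrolase gene of the first step, read 7.53 ± 0.0080 (SD, n = 2) in wild type and 9.58 ± 0.078 in grh overexpression, 4.14-fold higher (limma adjusted p = 5.88e-11). The sepiapterin reductase gene Sptr, dim in wild type and on the mutant-labelled arrays, was at least 5.95-fold higher. Pcd, which encodes the carbinolamine dehydratase that recycles the used cofactor, was 3.43-fold higher (limma adjusted p = 8.81e-10). The gene pr, for the step after Pu, and Dhpr, for the reductase that completes recycling, were 1.81-fold and 1.76-fold higher.

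The same 5 genes went both ways on the mutant-labelled arrays, 3 higher and 2 lower. Their fitted median was 0.23 with Sptr, which was dim in both groups there, and -0.21 without it. The recycling genes Pcd and Dhpr fell by 0.65 and 0.90 on the log2 scale (limma adjusted p = 7.36e-06 and 4.16e-07). The synthesis gene pr was 2.46-fold higher (limma adjusted p = 2.26e-08) and Pu 1.17-fold (limma adjusted p = 0.00521; 0.0735 without mutant replicate 2 and 0.0794 with no filter). Thus Pcd and Dhpr differed from wild type in opposite directions in the 2 altered genotypes, as most of the tyrosine chain did, and pr rose in both.

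Among later kynurenine and ommochrome genes, 3 of the 4 on the array were tested, and cd, a gene of the last pigment step, was dim throughout. The gene kar, of the brown pigment route, read 8.58 ± 0.0047 (SD, n = 2) in wild type, 7.50 ± 0.092 on the mutant-labelled arrays and 6.54 ± 0.018 in grh overexpression. It fell in both altered genotypes, 2.10-fold (limma adjusted p = 1.74e-08) and 4.09-fold (limma adjusted p = 4.52e-11), so it did not follow KFase in grh overexpression. Kyat, the kynurenine aminotransferase gene of the side branch, was 1.35-fold lower in grh overexpression (limma adjusted p = 1.82e-05) and did not pass the test on the mutant-labelled arrays (log2 difference -0.03). The pigment transporter gene st was 1.30-fold higher in grh overexpression (limma adjusted p = 0.0162), a call that was lost without either overexpression array (0.10 and 0.212) and without wild type replicate 2 (0.0991), with arrays centred on the median (0.0535) and with no filter (0.232). The gene st did not pass on the mutant-labelled arrays (log2 difference -0.10), but without mutant replicate 1 it was called lower, at -0.34 (limma adjusted p = 0.0152), and the count of called genes in this list went from 1 to 2.

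Genes that send tyrosine and tryptophan to amines and cuticle precursors were tested for 8 of the 10 on the array. In grh overexpression 6 were higher and 2 lower (median 0.35), and on the mutant-labelled arrays 3 were higher and 4 lower (median -0.39). The cuticle gene amd moved by nearly equal amounts in opposite directions, being 2.90-fold lower on the mutant-labelled arrays (limma adjusted p = 6.15e-11), while in grh overexpression it was 2.89-fold higher (limma adjusted p = 2.23e-11). The dopa decarboxylase gene Ddc was 2.74-fold lower and 1.31-fold higher. The gene e, whose enzyme couples beta-alanine to dopamine, was 6.44-fold higher in grh overexpression (limma adjusted p = 7.25e-12), while t, whose enzyme reverses that step, was 3.11-fold lower (limma adjusted p = 2.92e-08). Both moved the same way on the mutant-labelled arrays, where e was 1.15-fold higher (limma adjusted p = 0.0134; 0.0843 without mutant replicate 1) and t 1.61-fold lower (limma adjusted p = 5.99e-05). Tdc2, which makes tyramine in neurons, fell in both altered genotypes, by 1.14 on the log2 scale on the mutant-labelled arrays and at least 2.43-fold in grh overexpression, where it was dim. The probe set for ple, tyrosine hydroxylase, was dim on every array and was not tested.

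Breakdown of other amino acids served as a wider comparison, with 27 genes tested of 30 listed. In grh overexpression 10 were higher and 11 lower, with a median log2 difference of -0.07 that lies beside the -0.08 of all rows. The largest increase was that of Gnmt, a glycine N-methyltransferase gene, which was 9.59-fold higher (limma adjusted p = 2.54e-12). The cystathionine beta-synthase gene Cbs was 2.83-fold higher (limma adjusted p = 8.19e-11), and the arginase gene arg fell by 1.58 on the log2 scale (limma adjusted p = 3.12e-10).

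On the mutant-labelled arrays 6 of the 27 were higher and 15 lower (median -0.22). Bcat, which starts the breakdown of branched-chain amino acids, was 2.80-fold lower (limma adjusted p = 4.11e-09) and Cbs 2.64-fold lower (limma adjusted p = 2.98e-10). BckdhB, of the next enzyme complex of that route, was 3.09-fold higher (limma adjusted p = 1.06e-10), and Gnmt was 2.57-fold higher. Cbs and Bcat thus had opposite signs in the altered genotypes, with Bcat 1.45-fold higher in grh overexpression, and Gnmt rose in both.

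**Figure D4:**
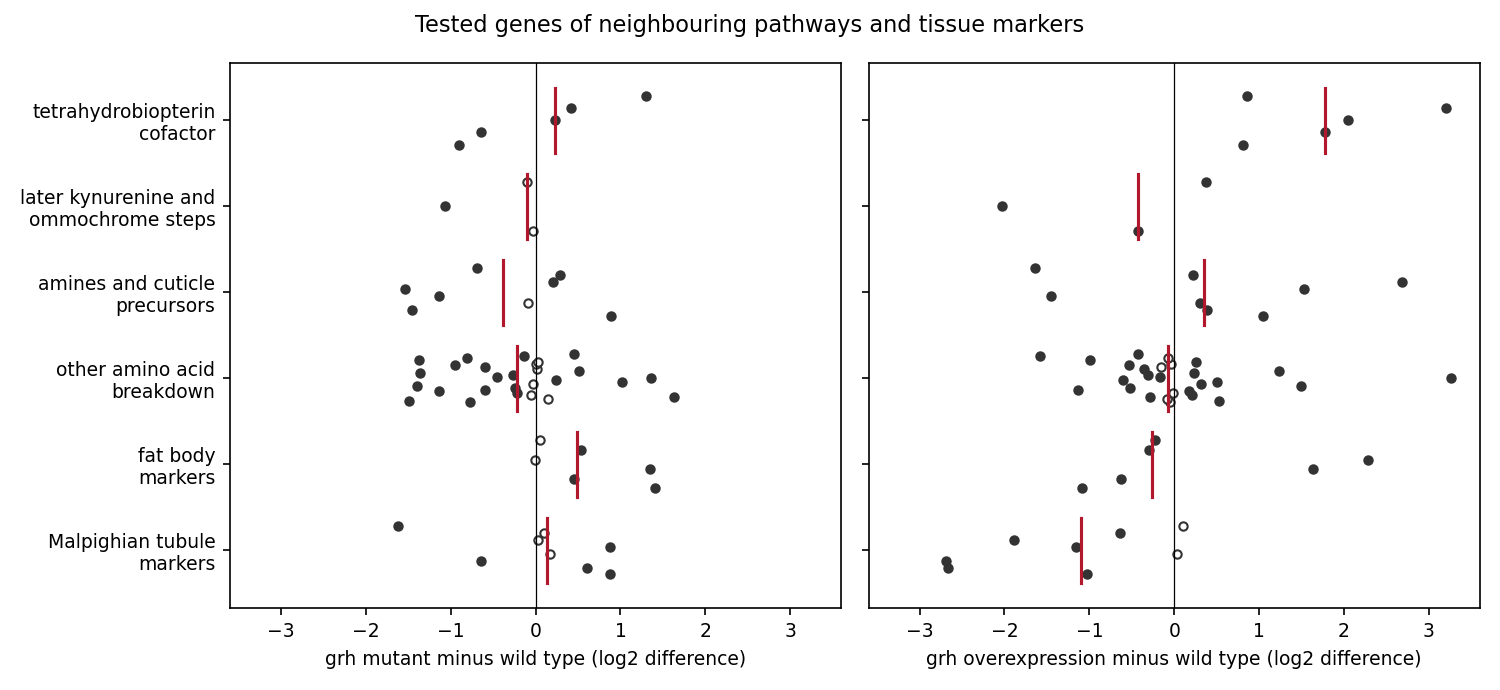
Log2 difference from wild type (horizontal axes) of each tested gene of the pathway and tissue lists (rows), on the mutant-labelled arrays (left) and in grh overexpression (right), with filled points for an adjusted p under 0.05, open points otherwise and a red line at the list median. The 5 cofactor genes lie right of zero in grh overexpression with a median of 1.78 (1.32 over the 4 without Sptr, whose direction was fixed by the filter), and the tubule markers lie mostly left with a median of -1.10.

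Tyrosine and tryptophan breakdown is known from fat body and Malpighian tubules of the fly, so markers of both were read beside it. Of 8 fat body markers on the array, Lsp2 and Fbp1, genes of the later larval fat body, were dim on every array, and 6 were tested. On the mutant-labelled arrays 4 were higher and 0 lower, and in grh overexpression 2 were higher and 4 lower. AkhR, the adipokinetic hormone receptor gene, was 2.65-fold higher on the mutant-labelled arrays (limma adjusted p = 7.39e-08) and 2.13-fold lower in grh overexpression (limma adjusted p = 6.09e-07), the reverse of most of the tyrosine chain. The lipid transfer gene Mtp was 1.45-fold higher and 1.23-fold lower. FASN1, a fatty acid synthase gene, rose in both, 2.54-fold and 3.11-fold. Fbp2, dim in wild type and on the mutant-labelled arrays, was at least 1.47-fold higher in grh overexpression, a direction fixed by the filter. The log2 of the summed linear signal of the list was 12.69 to 12.70 in wild type, 12.79 to 12.92 on the mutant-labelled arrays and 12.52 in grh overexpression. One gene, apolpp, which encodes the lipophorin precursor, made up 80.4% to 87.9% of that sum. Without it the sum was 9.64 to 9.65 in wild type, 10.42 to 10.44 on the mutant-labelled arrays and 9.78 to 9.80 in grh overexpression.

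Of 10 tubule markers on the array, SecCl and Oatp58Db were dim on every array and 8 were tested. In grh overexpression 0 were higher and 6 lower (median -1.10). The potassium channel genes Irk2 and Irk3, dim there, were at least 4.20-fold and 2.99-fold lower, and the transporter gene Oatp58Dc at least 2.25-fold. On the mutant-labelled arrays 3 were higher, among them NKCC and Drip at 1.84-fold each, and 2 lower, with ZnT35C 3.07-fold lower (limma adjusted p = 1.22e-09). ZnT35C and Lkr did not pass the test in grh overexpression (log2 differences 0.10 and 0.04). The log2 of the summed linear signal, in which the brightest genes weigh most, was 9.89 to 9.96 in wild type. It was 10.22 to 10.25 on the mutant-labelled arrays and 9.17 to 9.19 in grh overexpression. The part of either tissue in the differences of the breakdown genes was not tested.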

How the data were processed

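Transcript levels were measured in stage 16 embryos of 3 genotypes, 2 arrays each. The deposited table holds 1 log2 value per probe set and array; per the submitters' processing notes the tools included GCRMA and MAS5, with no role or version given, and the log2 scale, with no centring per gene, was read from the values. No further normalization was applied. The 18952 probe sets took their names from the annotation of the platform, updated to RefSeq symbols of assembly Release 6 plus ISO1 MT: 13647 had 1 symbol, 402 several, 4720 none, and 183 controls were left out. The brightest probe set stood for a gene, and the 8632 rows reaching a log2 value of 4 on 2 or more arrays were fitted in a 3-group means model with limma 3.58.1 in R 4.3.3 (eBayes with trend, 3 residual and 7.93 prior degrees of freedom, Benjamini-Hochberg, two-sided). The script was tested on simulated data with far fewer changed rows than were called here, so that test does not cover this setting. A fold against a dim group is a bound, from the bright mean against the higher of 4 and the dim mean. An exact permutation of 2 against 2 arrays could not pass the threshold and was not run. The number of arrays limits the precision.

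The members and lists were chosen with earlier results of these data known. Named were all members, all cofactor and later kynurenine genes on the array, the 3 largest differences per comparison in the other lists with Ddc, grh, and the 6 genes nearest to Hpd and to hgo; genes dim throughout were named after their values were seen. A promoter motif search that had been planned was not run, since no promoter sequences were used here. Alternatives were the mean of all probe sets, median centring, quantile normalization, no filter, a minimum of 5, no trend, the 2 groups alone, a replicate block and leaving out each array.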

Additional observations from a re-analysis of the deposited data

How the results depend on the processing

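Each difference of the 7 tested members was recomputed under up to 14 alternatives, and 1 of 194 values changed sign, that of Tat in grh overexpression after quantile normalization (-0.00023). Many of the 194 could not change. With 1 probe set per member, averaging probe sets leaves a difference as it was. So do no filter, a minimum of 5, no trend, the 2 groups alone and the replicate block. Leaving out an array of the genotype not compared also changes nothing. The 194 values are therefore not that many separate checks. A further 8 of these values moved by more than the replicate spread with no change of sign, all under median centring or quantile normalization. Among them was Tat in grh overexpression, at 0.03 under median centring. With 2 arrays per genotype, leaving out 1 cannot move a member's difference beyond that spread. The count of 8 therefore does not show how far the differences depend on single arrays. The members' fitted median, which on the mutant-labelled arrays rests on 5 dim genes, moved by more than the replicate spread once in each comparison: to -1.80 on the mutant-labelled arrays without wild type replicate 1 (range -1.95 to -1.80 when leaving out each array) and to 2.46 in grh overexpression with a minimum of 5, which drops Tat (range 2.20 to 2.29 when leaving out each array). The count of called later kynurenine and ommochrome genes on the mutant-labelled arrays ranged from 1 to 2 when leaving out each array. Of 1034 recomputed values of named genes outside the members, 14 lost their call and 1 gained it. For arg on the mutant-labelled arrays (log2 difference -0.14) the call at a limma adjusted p of 0.0481 was lost under 6 of them, at 0.0503 to 0.148. The call of the gene e there (log2 difference 0.20) was lost without mutant replicate 1, at a limma adjusted p of 0.0843. The causes were not tested. With replicate number as a block, 7171 rows were called on the mutant-labelled arrays and 7127 in grh overexpression, against 6979 and 6915. Same-numbered arrays share only a number in the labels; their deviations from the group means correlated across rows at 0.17, 0.24 and 0.14, and the block changed none of the calls named here. Genes near the floor have bounds only, so the size of decreases on the mutant-labelled arrays is limited by signal over background.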
